A study of Mus musculus with 7 samples.

Results

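The FGF response genes are 10 mouse genes that fibroblast growth factor (FGF) signalling is known to switch on and that then pass on or damp the signal: Spry1, Spry2, Spry4, Spred1, Spred2, Dusp6, Il17rd, Etv1, Etv4 and Etv5. They were chosen by symbol, with all probes whose transcript accession maps to one of those symbols. This gave 16 probes of the 24844 on the array that carry a gene symbol, and 10 genes of 17178. The same arrays also carry the ligands Fgf8 and Fgf17, so the question was whether the response genes differ between the groups and whether their level follows the ligands of the same array.

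RNA came from the ganglionic eminences and septum of female CD-1 embryos at E12.5, a stage of embryonic neurogenesis. The 3 Otx2 cKO arrays are of embryos in which RxCre recombined a floxed Otx2 allele. The 4 Control arrays carry only the genotype Control in the labels, without the alleles. Per the series description, RxCre is active in most of the forebrain but not in its caudal dorsomedial part, where the cortical hem and choroid plexus lie, so cells there keep the allele unrecombined. Litter 2 supplied Otx2 cKO replicates 1 and 3 and Control replicates 2 and 3, and the other 3 arrays each came from a litter of their own. Slide 1 held Otx2 cKO replicate 1 with Control replicates 1 and 2, and slide 2 held the other 4 arrays.

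Most FGFs are secreted proteins that bind receptor tyrosine kinases and, through Ras, Raf and MEK, activate the kinase ERK in the responding cell. ERK switches on ETS transcription factors of the PEA3 group (Etv1, Etv4, Etv5) and a set of inhibitors that act back on the same cascade (Sprouty and Spred proteins, the phosphatase Dusp6, and the membrane protein Il17rd, also called Sef). In the embryonic forebrain Fgf8 and Fgf17 are made at the rostral midline, next to the septum, and these response genes are widely used as a readout of where FGF is received.

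Each value is the log2 of a signal divided by the 75th percentile of its array, 1 value per array, and values can be compared between arrays but not between probes. Between 68.36% and 72.24% of the spots of an array were well above background and 0 spots were saturated. Precision is limited by the number of arrays. Each p-value covers the spread between these embryos only. In dissected tissue, fewer cells of a type and less RNA per cell cannot be told apart.

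The signal of the targeted gene ran against the label. Otx2 was 1.77, 2.33 and 1.77 in the arrays labelled Otx2 cKO and 0.18, 0.54, 0.47 and 0.55 in Control arrays, so the arrays labelled Otx2 cKO were higher by 1.52 ± 0.17 on the log2 scale (limma, SE over 3 and 4 arrays, adjusted p = 0.0337). Omitting single arrays left a difference of 1.33 to 1.61, with an adjusted limma p of 0.0559 to 0.15, which ended the call at a threshold of 0.05. The sources used here do not say whether the probe lies in the deleted part of the gene, and a probe outside it checks nothing. Otx2 cKO and Control are the groups as labelled, and each direction given depends on those labels being right. Of the 12 subpallial marker genes (Dlx, Gsx and Gad genes, Nkx2-1, Lhx6 and others), all 12 were well above background on at least 3 arrays. So were 13541 of the 17178 named genes, all 8 endothelial genes and all 12 mesenchyme and pericyte genes listed, so this does not identify the tissue.

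The promoters of 3 members are shown because Dusp6 and Il17rd had the highest correlations with both ligands over these arrays and Spred2 a low one (values below). Each is the 250 bases before the annotated start, 5′ to 3′ on the gene's strand, from RefSeq on GRCm38.p6, and capitals mark GGAA or its reverse complement TTCC, the core that ETS factors bind.
Dusp6, chr10:99262981-99263230, plus strand: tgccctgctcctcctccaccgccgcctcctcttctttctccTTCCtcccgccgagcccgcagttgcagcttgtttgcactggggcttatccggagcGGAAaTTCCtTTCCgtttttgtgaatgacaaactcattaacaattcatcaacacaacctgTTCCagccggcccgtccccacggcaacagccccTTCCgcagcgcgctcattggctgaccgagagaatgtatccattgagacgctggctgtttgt
Il17rd, chr14:27038751-27039000, plus strand: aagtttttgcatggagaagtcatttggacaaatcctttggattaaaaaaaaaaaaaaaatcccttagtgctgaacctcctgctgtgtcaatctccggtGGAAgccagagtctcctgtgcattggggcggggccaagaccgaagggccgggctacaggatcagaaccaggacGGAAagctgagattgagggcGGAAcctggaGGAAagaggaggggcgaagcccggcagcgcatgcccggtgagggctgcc
Spred2, chr11:19924192-19924441, plus strand: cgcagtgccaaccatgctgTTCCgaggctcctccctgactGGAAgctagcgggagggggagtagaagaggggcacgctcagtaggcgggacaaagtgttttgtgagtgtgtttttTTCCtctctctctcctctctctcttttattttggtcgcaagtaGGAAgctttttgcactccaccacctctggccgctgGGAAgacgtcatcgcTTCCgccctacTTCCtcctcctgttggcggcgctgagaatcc

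A promoter was found for 8 of the 10 members (10 promoters, since Etv1 and Etv5 have 2 each). Dusp6 held the core 6 times, a number that 8.69% of all 32851 mouse promoters of this length reach. Spred2 held it 7 times, reached by 3.82%, and Il17rd 4 times, reached by 33.4%. The core alone is common, in 93.4% of all promoters and in 9 of the 10 member promoters. The longer ETS motifs CCGGAA and CAGGAAG, both of which contain the core and were searched on both strands, stood in 12.0% and 10.8% of all promoters and in 0 of the 10 member promoters. These counts describe letters in a window and do not separate Dusp6 and Il17rd from Spred2.

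The ligands varied more between embryos than between groups. Fgf8 was -2.69, -0.33 and -4.60 in the Otx2 cKO arrays and -2.45, -2.86, -2.83 and -1.53 in Control arrays. Fgf17, a close relative of Fgf8, was -5.34, -2.81 and -7.45 in Otx2 cKO arrays and -5.32, -5.90, -6.57 and -4.41 in Control arrays, where -7.45 is the common floor and that spot was not well above background. For both ligands Otx2 cKO replicate 2 was the highest and Otx2 cKO replicate 3 the lowest of the 7 arrays, so the Otx2 cKO arrays enclosed the Control arrays on both sides. The highest array exceeded the lowest 19.3-fold for Fgf8 and at least 24.8-fold for Fgf17. The log2 difference between groups was -0.12 ± 0.94 for Fgf8 (limma adjusted p = 0.976) and 0.35 ± 1.06 for Fgf17 (adjusted p = 0.931; SE, n = 3 and 4). Without Otx2 cKO replicate 2 the Fgf8 difference was -1.22, and without Otx2 cKO replicate 3 it was 0.91. Fgf8 and Fgf17 rose and fell together over the arrays (Pearson r 0.97, exact permutation p = 0.000595; Spearman rho 0.96, p = 0.00278).

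None of the 8 response genes that could be tested passed the threshold between Otx2 cKO and Control. With limma, 0 of 8 had an adjusted p under 0.05, against 0.21% of the 13341 genes tested, and 0 of 8 were higher at an unadjusted p under 0.05, against 3.94%. None was lower at that level, against 7.1%. The difference was positive for 6 and negative for 2, with a median of 0.39 on the log2 scale, against 0.01 for all genes tested. The groups overlapped in all 8, whereas 12.3% of all genes had groups that did not overlap. Spry4 and Spry1 were not tested, for the reasons given with their values.

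Among the ETS factors, Etv4 and Etv5 varied with the embryo and Etv1 hardly varied. Etv4 was -2.07, -1.15 and -2.66 in Otx2 cKO arrays and -2.53, -2.58, -2.29 and -2.29 in Control arrays. Otx2 cKO replicates 1 and 2 lay above every Control array and replicate 3 below every one, and the difference was 0.46 ± 0.33 (adjusted p = 0.657). Etv5 was -3.43, -2.83 and -4.05 in Otx2 cKO arrays and -4.00, -3.49, -4.06 and -3.73 in Control arrays. Again Otx2 cKO replicates 1 and 2 were above every Control array, but replicate 3 sat among the lowest arrays (difference 0.38 ± 0.29, adjusted p = 0.675). Etv1, which in the ventral forebrain is also a marker of particular neuron groups, was 2.51, 2.58 and 2.43 in Otx2 cKO arrays and 2.47, 2.68, 2.56 and 2.44 in Control arrays. All 7 Etv1 values lay within 1.19-fold of each other, and the 95% interval of its difference was -0.24 to 0.18.

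The intracellular feedback inhibitor Spry2, one of the Sprouty proteins that block the cascade between receptor and Raf, had the largest group difference of the 8. It was 0.11, 0.79 and -0.31 in Otx2 cKO arrays and -0.47, -0.22, -0.30 and -0.18 in Control arrays. The difference was 0.49 ± 0.24 with a 95% interval of -0.09 to 1.07 (unadjusted p = 0.0868, adjusted p = 0.523, limma). As for Etv4 and Etv5, Otx2 cKO replicates 1 and 2 were above every Control array and replicate 3 was not.

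Dusp6, the cytoplasmic phosphatase that inactivates ERK itself, was 1.95, 2.86 and 1.57 in Otx2 cKO arrays and 1.53, 1.71, 1.53 and 2.14 in Control arrays. Il17rd, which acts at the membrane on receptor and cascade, was 1.82, 2.91 and 1.27 in Otx2 cKO arrays and 1.54, 1.60, 1.44 and 1.85 in Control arrays. In both genes Otx2 cKO replicate 2 was the highest array and Control replicate 4 the next, the same first and second places as in Fgf8 and Fgf17. The differences were 0.40 ± 0.32 for Dusp6 (adjusted p = 0.687) and 0.39 ± 0.36 for Il17rd (adjusted p = 0.735). Il17rd spanned 3.12-fold over the Otx2 cKO arrays and 1.33-fold over the Control arrays.

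The Spred genes, which encode Sprouty-related membrane inhibitors of Ras to Raf signalling, did not share this pattern. Spred1 was -3.32, -3.29 and -3.37 in Otx2 cKO arrays and -3.55, -3.15, -3.50 and -3.35 in Control arrays, a difference of 0.06 ± 0.11 (adjusted p = 0.882). Spred2 was -1.81, -1.20 and -1.45 in Otx2 cKO arrays and -1.80, -1.44, -1.13 and -1.34 in Control arrays, a difference of -0.06 ± 0.20 (adjusted p = 0.937). In both, the groups overlapped and the highest array was a Control. The Spred1 values of the Otx2 cKO arrays lay inside the wider range of the Control arrays.

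Spry1 and Spry4 are Sprouty relatives of Spry2. The single Spry1 spot was marked as an outlier by the scanner software on 4 of the 7 arrays, which left 2.17 and 1.19 in Otx2 cKO replicates 1 and 3 and 3.06 in Control replicate 4. With outlier spots kept, Spry1 was 2.07, 3.14 and 1.06 in Otx2 cKO arrays and 2.54, 2.66, 2.33 and 2.93 in Control arrays. On those values the highest array was again Otx2 cKO replicate 2 and the lowest Otx2 cKO replicate 3, a span of 4.23-fold, and Spry1 averaged 2.09 ± 1.04 in Otx2 cKO and 2.62 ± 0.25 in Control arrays (SD, n = 3 and 4). Spry4 had 2 probes, and of their 14 readings 1 was well above background, the dimmer probe on Otx2 cKO replicate 2 at -6.31. Its level in these arrays was not measurable.

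**Figure D1:**
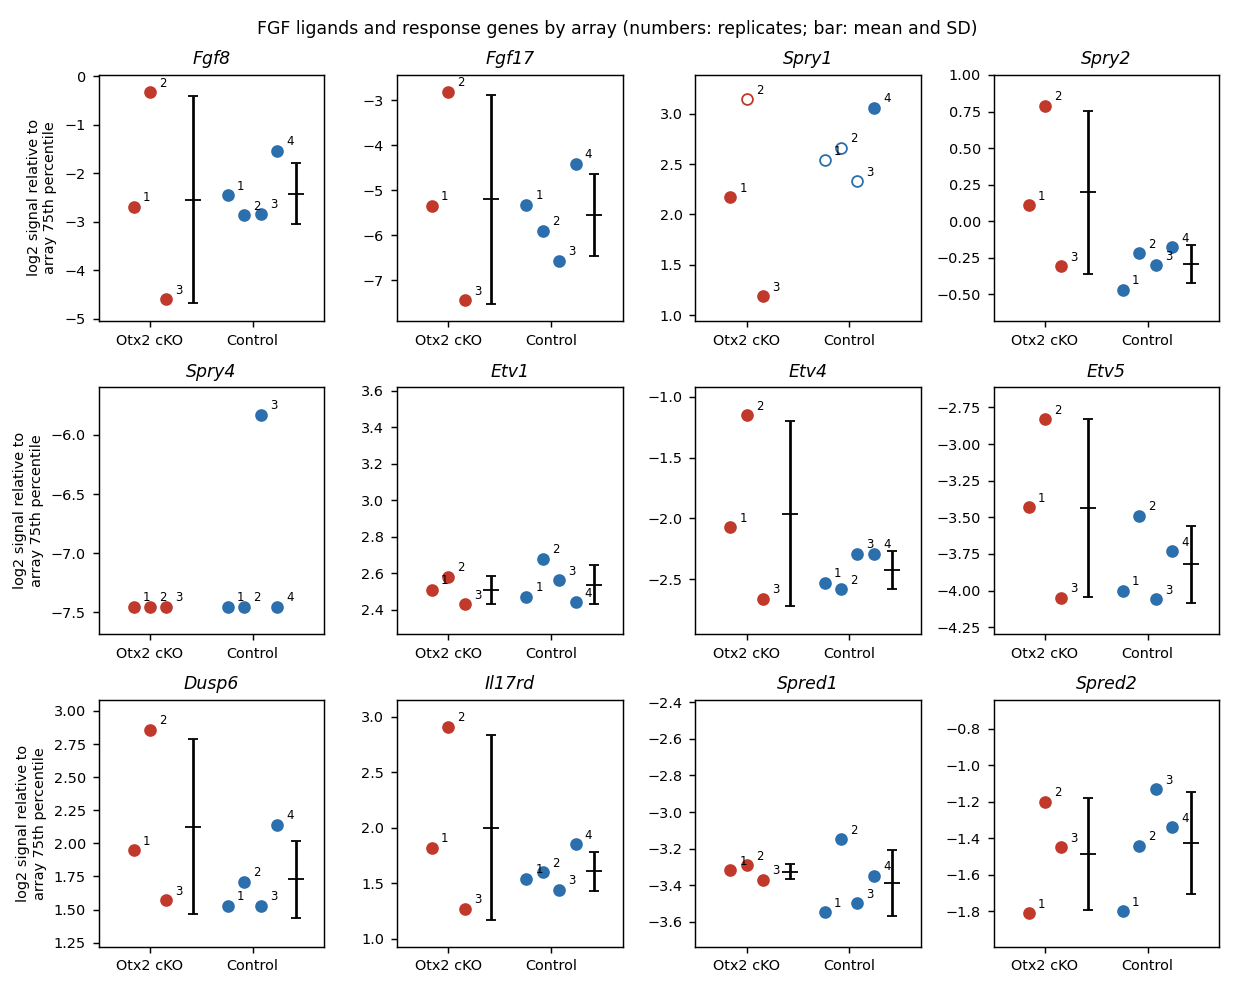
Log2 signal over the 75th percentile of the array for Fgf8, Fgf17 and the 10 response genes, with Otx2 cKO (red, 3 arrays) left of Control (blue, 4 arrays), replicate numbers beside the points and bars for mean and SD. Open circles are Spry1 values from spots marked as outliers; -7.45 is the floor (Spry4, and Fgf17 in Otx2 cKO replicate 3), and each panel has its own scale. Otx2 cKO replicate 2 was highest in Fgf8 (-0.33), Fgf17, Spry2, Etv4, Etv5, Dusp6 and Il17rd (2.91), while Etv1 stayed within 1.19-fold.

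The response genes were then set against the ligands over the 7 arrays, as Pearson r with a two-sided exact permutation test over all pairings of the arrays. Il17rd, Dusp6 and Etv4 had the highest correlations with Fgf8, and Etv5 and Spry2 the next. With Fgf8, r was 0.88 for Il17rd (exact permutation p = 0.00556, Spearman rho 0.82), 0.83 for Dusp6 (p = 0.0204, rho 0.61) and 0.81 for Etv4 (p = 0.0363, rho 0.71). It was 0.73 for Etv5 (exact permutation p = 0.072, rho 0.54) and 0.70 for Spry2 (p = 0.112, rho 0.54). Etv1, Spred1 and Spred2 had r of 0.22, 0.14 and 0.28 with Fgf8 (exact permutation p = 0.641, 0.805 and 0.555; rho 0.11, 0.07 and 0.21). The rank correlations had exact permutation p = 0.0341 for Il17rd, 0.167 for Dusp6, 0.0881 for Etv4, 0.236 for Etv5, 0.236 for Spry2, 0.84 for Etv1, 0.906 for Spred1 and 0.662 for Spred2.

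With Fgf17 the order of the members was the same at the top. The r was 0.93 for Il17rd (exact permutation p = 0.00119, rho 0.89), 0.90 for Dusp6 (p = 0.00456, rho 0.71), 0.83 for Etv4 (p = 0.023, rho 0.61), 0.81 for Etv5 (p = 0.0296, rho 0.68) and 0.77 for Spry2 (p = 0.051, rho 0.57). It was 0.22 for Spred1, 0.14 for Etv1 and 0.13 for Spred2 (exact permutation p = 0.648, 0.757 and 0.774; rho 0.25, 0.18 and 0.11). The rank correlations had exact permutation p = 0.0123 for Il17rd, 0.0881 for Dusp6, 0.167 for Etv4, 0.11 for Etv5, 0.2 for Spry2, 0.595 for Spred1, 0.713 for Etv1 and 0.84 for Spred2. Along the fitted lines, Il17rd was higher by 0.36 and Dusp6 by 0.31 on the log2 scale for each log2 unit of Fgf8, so the spread of the response genes was smaller than that of the ligand.

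A positive r with exact permutation p of at most 0.05, called following the ligand from here on, was found for 3 of 8 members with Fgf8, against 5.39% of the 12672 genes tested, and for 4 of 8 with Fgf17, against 3.91%. The median r was 0.72 with Fgf8 and 0.79 with Fgf17, against 0.09 and 0.06 for all genes. An r as high as that of Il17rd with Fgf8 was reached by 0.955% of genes, and one as high as that of Dusp6 by 2.45%. After adjustment over all genes, 0 of the 8 members followed either ligand, against 0.0% of genes for both. The adjusted exact permutation p was at least 0.67 for each of the 16 relations, and with 7 arrays at least 51 genes would have to share the smallest possible p before any could pass. The genes of an array share its dissection and its hybridisation, and Fgf8 and Fgf17 are nearly the same measure here, so the 16 relations are not independent.

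The relation rested largely on Otx2 cKO replicates 2 and 3, the arrays farthest from the median of both ligands. Without these 2 arrays, r with Fgf8 was 0.70 for Dusp6 and 0.62 for Il17rd, but 0.13 for Etv4, -0.02 for Spry2 and -0.06 for Etv5. With 5 arrays the exact permutation p cannot go below 0.00833, and it was 0.158 for Dusp6 and 0.233 for Il17rd. For Fgf17, r without these 2 arrays was 0.82 for Il17rd, 0.78 for Dusp6, 0.29 for Etv5, 0.21 for Spry2 and 0.15 for Etv4. Leaving out Otx2 cKO replicate 2 alone gave, with Fgf8, 0.83 for Il17rd, 0.61 for Dusp6, 0.54 for Etv4, 0.36 for Etv5 and 0.16 for Spry2. With Fgf17 it gave 0.91, 0.74, 0.50, 0.50 and 0.29 in that order. With group means taken out, r with Fgf8 was 0.98 for Il17rd, 0.96 for Dusp6, 0.95 for Etv4, 0.93 for Spry2 and 0.85 for Etv5, with exact permutation p of 0.0278, 0.0347, 0.0764, 0.111 and 0.153 within groups (adjusted p = 1.0 for each). With slide means taken out it was 0.88 for Il17rd, 0.84 for Dusp6, 0.81 for Etv4, 0.74 for Etv5 and 0.70 for Spry2. The exact permutation p within slides was 0.104, 0.16, 0.125, 0.188 and 0.285 in that order, all above 0.05. For Fgf17 with slide means out, r was 0.94 for Il17rd, 0.93 for Dusp6, 0.85 for Etv4, 0.81 for Etv5 and 0.78 for Spry2. There the exact permutation p was 0.0278, 0.0556, 0.0278, 0.0556 and 0.0486 in that order, and the adjusted p was at least 0.545. Within groups or slides no gene had an exact permutation p below 0.0069, which leaves little room to pass after adjustment. Spry1, with outlier spots kept, had r 0.91 with Fgf8 and 0.82 with Fgf17 (exact permutation p = 0.00615 and 0.0264, adjusted p = 0.594 and 0.914).

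**Figure D2:**
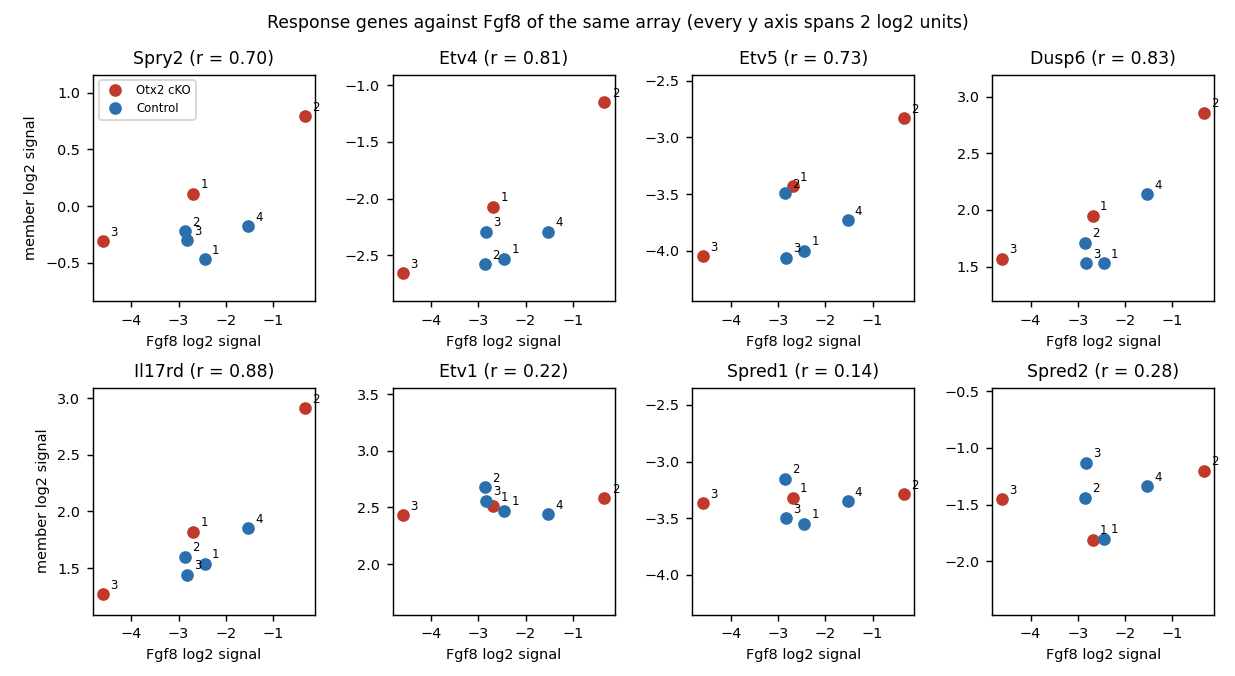
Log2 signal of each of the 8 tested response genes (y axis) against log2 signal of Fgf8 (x axis) in the same array, with Otx2 cKO in red, Control in blue and replicate numbers beside the points; every y axis spans the same range of log2 units. Il17rd (r 0.88) and Dusp6 (r 0.83) climbed with Fgf8 over the arrays, Spry2 (r 0.70) mainly through Otx2 cKO replicate 2, and Etv1, Spred1 and Spred2 were near flat.

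**Figure D3:**
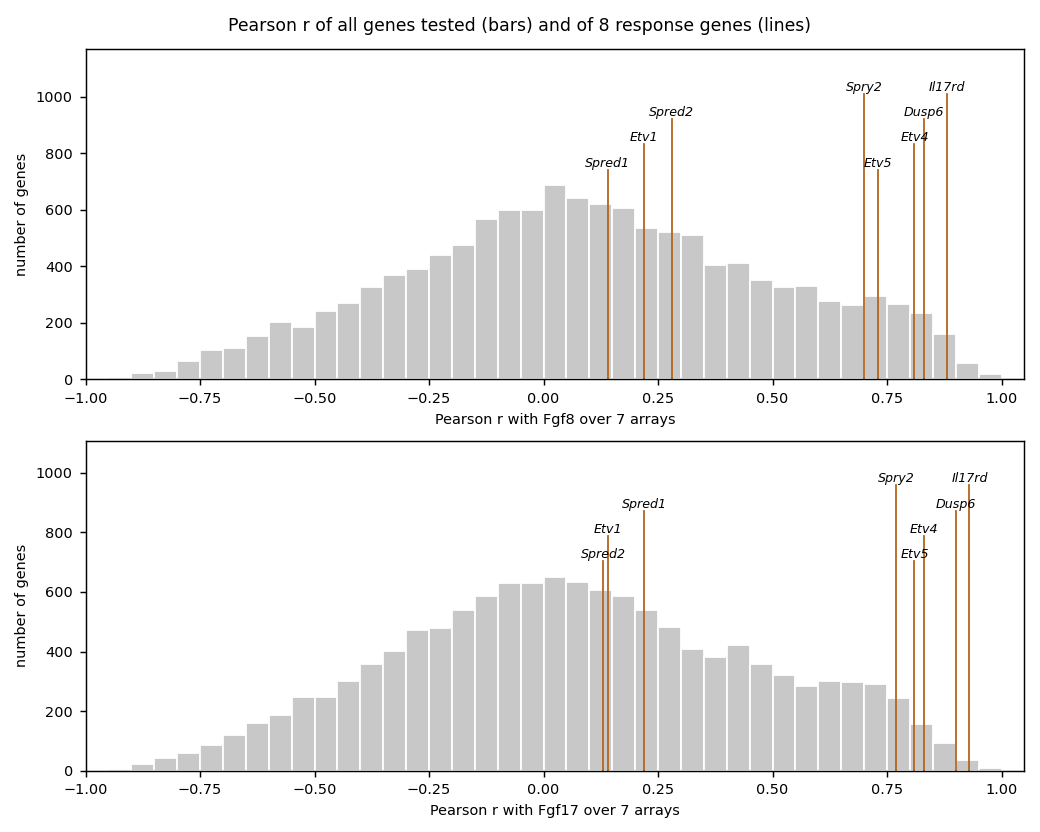
Number of genes (y axis) by Pearson r over 7 arrays (x axis) with Fgf8 (top) and Fgf17 (bottom) for the 12672 genes tested, with a line at the r of each of 8 response genes. Il17rd, Dusp6, Etv4, Etv5 and Spry2 lie in the right tail of both distributions, which hold many other genes, and Etv1, Spred1 and Spred2 lie near the middle.

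The members with the higher correlations with the ligands also moved with each other. Over the 10 pairs among Spry2, Etv4, Etv5, Dusp6 and Il17rd, r over the arrays was 0.84 to 0.97 (median 0.94). Over the 18 pairs that include Etv1, Spred1 or Spred2 it was 0.14 to 0.64 (median 0.29). This split was made after the values were seen and is a description. The first 5 genes also varied more, with SDs over the 7 arrays of 0.42 to 0.54, which 12.1% to 18.2% of all genes reach. The SD was 0.09 for Etv1, 0.13 for Spred1 and 0.27 for Spred2, against a median of 0.19 for all genes.

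The probes of a member did not always agree. The Il17rd values above are from its brightest probe, while a second probe near the lower end of the scale ran between -5.31 and -4.25 and had r 0.33 with Fgf8. The second Spry2 probe, between -5.05 and -4.59, had r 0.35. The second Etv5 probe kept the pattern in part, with -4.33, -3.28 and -4.61 in Otx2 cKO arrays and -5.72, -4.67, -5.12 and -4.24 in Control arrays, a difference of 0.86 ± 0.44 and r 0.55 with Fgf8. Spred1 differed by 0.32 ± 0.21 at its second probe. Of the 12 member probes tested, 0 passed the limma threshold, against 0.0702% of the 28492 probes tested.

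At like levels of Fgf8, 5 response genes had higher values in 1 Otx2 cKO array than in 3 Control arrays. Otx2 cKO replicate 1 had an Fgf8 of -2.69, between -2.45 and -2.86 in Control replicates 1 and 2, with Control replicate 3 at -2.83. In that array Spry2, Etv4, Etv5, Dusp6 and Il17rd were each above all 3 of these Control arrays. Fgf17 was matched less well, at -5.34 in that array and -5.32, -5.90 and -6.57 in Control replicates 1, 2 and 3. This is a single array, and the 5 genes were picked after the values were seen and moved together. The share of all genes above these 3 Control arrays was not counted. A fit with Fgf8 as a covariate, chosen after the data were seen, gave differences of 0.52 ± 0.12 for Spry2, 0.50 ± 0.13 for Etv4, 0.44 ± 0.12 for Dusp6, 0.44 ± 0.10 for Il17rd and 0.41 ± 0.18 for Etv5 (SE, limma). In that fit 4 of the 8 members were higher at an unadjusted p under 0.05, against 4.14% of all genes, and 0 passed after adjustment (Spry2 unadjusted p = 0.00409, adjusted p = 0.303). With Fgf17 as the covariate 1 of 8, Spry2 at 0.42 ± 0.14, was higher at an unadjusted p under 0.05, against 3.57%.

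Much of the group difference came from the embryo of litter 1, Otx2 cKO replicate 2, while Otx2 cKO replicate 3 lowered it. Within litter 2, which gave 2 arrays of each group, the difference was 0.16 for Spry2, 0.14 for Dusp6, 0.07 for Etv4, 0.04 for Etv5 and 0.02 for Il17rd, with intervals spanning 0 for each. Without Otx2 cKO replicate 2 it was 0.19 for Spry2, 0.08 for Etv5, 0.06 for Etv4, 0.03 for Dusp6 and -0.06 for Il17rd. Without Otx2 cKO replicate 3, which belongs to litter 2, it was 0.74 for Spry2, 0.69 for Etv5, 0.81 for Etv4, 0.68 for Dusp6 and 0.76 for Il17rd. Within slide 1 it was 0.45 for Spry2, 0.48 for Etv4 and 0.33 for Dusp6, and within slide 2 it was 0.48, 0.39 and 0.38 for the same genes. Otx2 cKO replicate 2 is the only array of its litter, so that embryo and its litter cannot be told apart.

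**Figure D4:**
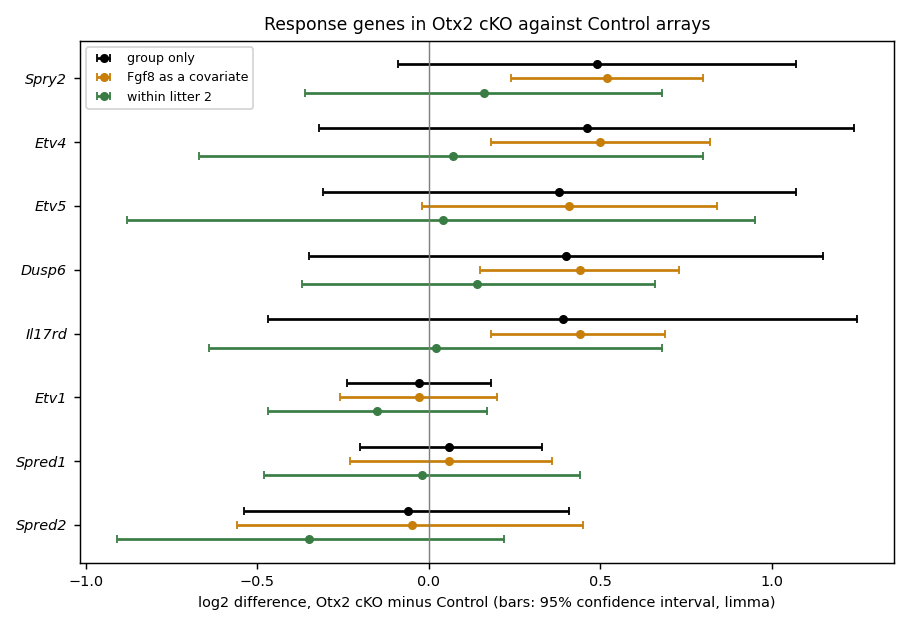
Log2 difference, Otx2 cKO minus Control (x axis), with 95% confidence intervals from limma for 8 response genes, with group alone (black), with Fgf8 as a covariate (orange) and within litter 2 (green). The intervals with group alone and within litter 2 include 0 for each gene, and with Fgf8 as a covariate those of Spry2, Etv4, Dusp6 and Il17rd lie above 0.

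Markers of cells outside the neural tissue moved with the same arrays. All 7 endothelial genes with a value on every array had a positive r with Fgf8 at an exact permutation p of at most 0.05, against 5.39% of all genes, with Pecam1, an endothelial adhesion protein, at 0.95. With Fgf17 this held for 3 of the 7, against 3.91% of all genes. The mean of the endothelial list, centred over the arrays, was -0.29, 0.69 and -0.55 in Otx2 cKO arrays and 0.11, -0.41, 0.18 and 0.26 in Control arrays. Its summed level relative to the 75th percentile was 5.83 to 13.8 in Otx2 cKO arrays and 6.43 to 10.7 in Control arrays. Of the microglia and macrophage genes 4 of 6 followed Fgf8 by the same measure, against the same 5.39%, and 4 of 6 followed Fgf17, against 3.91%. Their summed level was 1.63 to 3.36 in Otx2 cKO and 1.62 to 2.55 in Control arrays. Their centred mean was -0.68, 0.84 and -0.45 in Otx2 cKO and 0.33, -0.60, 0.17 and 0.38 in Control arrays.

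The mesenchyme and pericyte list was -1.82, 1.76 and -0.66 in Otx2 cKO and 0.81, -1.83, 0.68 and 1.06 in Control arrays, with summed levels of 3.96 to 48.3 in Otx2 cKO and 3.77 to 25.1 in Control arrays. Of its genes 3 of 11 followed Fgf8, against 5.39%, and 0 of 11 followed Fgf17, against 3.91%. Of the erythroid genes 0 of 6 followed either ligand, against 5.39% for Fgf8 and 3.91% for Fgf17. Their median r was nonetheless 0.61 with Fgf8, against 0.09 for all genes, and 0.53 with Fgf17, against 0.06. Erythroid summed levels were 182 to 283 in Otx2 cKO and 179 to 270 in Control arrays. Otx2 cKO replicate 2 was thus highest in all 4 of these lists, as it was in Spry2, Etv4, Etv5, Dusp6 and Il17rd but not in Etv1, Spred1 and Spred2.

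After regressing out the endothelial mean, an alternative chosen after the data were seen, r with Fgf8 was 0.73 for Il17rd, 0.68 for Dusp6, 0.47 for Etv4, 0.81 for Etv5 and 0.55 for Spry2. After regressing out the mesenchyme mean it was 0.85, 0.79, 0.74, 0.86 and 0.70 in the same order. For Spred1, Etv1 and Spred2 it was 0.79, 0.45 and -0.31 with the endothelial mean out. With the mesenchyme mean out it was 0.64, 0.54 and -0.03 for these genes. Spred1, at 0.14 before, thus came into the range of the 5 genes with the endothelial mean out (permutation p = 0.0389). Values left after a regression are not freely exchangeable between arrays, so permutation p-values with a list mean out are approximate and may be too small. The adjusted permutation p was at least 0.745 in both fits with Fgf8. For Fgf17 with the endothelial mean out, r was 0.83 for Il17rd, 0.80 for Dusp6, 0.57 for Etv4, 0.84 for Etv5 and 0.65 for Spry2. It was 0.72 for Spred1, 0.22 for Etv1 and -0.44 for Spred2, and the adjusted permutation p was at least 0.891. The part of the other cell types in the relation was otherwise not tested.

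The cell cycle, radial glia and pan-neuronal lists varied less than these 4 lists. The cell cycle mean was -0.05, 0.13 and 0.13 in Otx2 cKO arrays and between -0.16 and 0.00 in Control arrays, and 0 of 7 of its genes followed Fgf8. Radial glia genes did so for 0 of 8 and pan-neuronal genes for 0 of 8. The share of all genes is 5.39%, from which a count of 0 in lists this small cannot be told apart. Median r with Fgf8 was -0.16 for the cell cycle, -0.15 for the radial glia and -0.29 for the pan-neuronal list, against 0.09 for all genes. The cortical hem list, a dorsal midline WNT and BMP source, was -1.21, 1.34 and -1.58 in Otx2 cKO and 1.19, -0.95, 0.28 and 0.93 in Control arrays, with 1 of 6 genes following Fgf8, against 5.39%. Its gene Wnt3a was at the floor in Otx2 cKO replicates 1 and 3 and in Control replicate 2, and Bmp6 was at the floor in those Otx2 cKO arrays and at -7.12 in Control replicate 2. Choroid plexus genes were low throughout, with a summed level of 0.196 to 0.349 in Otx2 cKO and 0.185 to 0.34 in Control arrays. Of these 0 of 5 followed Fgf8, against 5.39%, with a median r of 0.47.

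**Figure D5:**
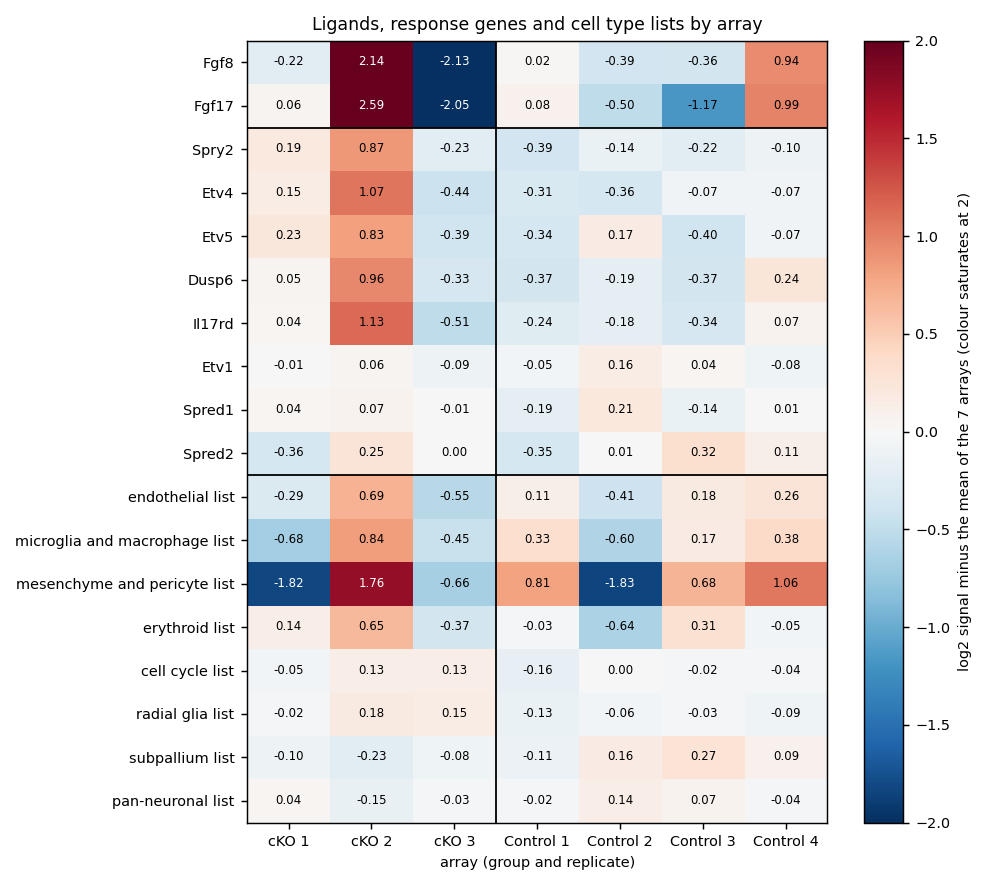
Log2 signal minus the mean of the 7 arrays, by array (columns, Otx2 cKO left of Control), for both ligands, the 8 tested response genes and the means of 8 cell type lists (rows). Otx2 cKO replicate 2 was high and Otx2 cKO replicate 3 low in the ligands, in Spry2, Etv4, Etv5, Dusp6 and Il17rd, and in the endothelial list (0.69 and -0.55), whereas Etv1, Spred1 and the cell cycle list changed little.

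The rest of the pathway showed 0 genes past the threshold between the groups, against 0.21% of the 13341 genes tested. In lists this small a count of 0 cannot be told apart from that share. The 22 genes of the FGF family include the intracellular Fgf11, Fgf12, Fgf13 and Fgf14, which are not secreted ligands. Of the 22 genes 13 were tested with limma, 0 rose and 0 fell, and 4 were lower at an unadjusted p under 0.05, against 7.1% of all genes. Fgf15 was the foremost of these, at 1.55, 1.39 and 1.25 in Otx2 cKO arrays and 2.35, 2.21, 2.06 and 1.86 in Control arrays, with no overlap and a difference of -0.72 ± 0.14 (adjusted p = 0.173). Fgf5, Fgf13 and Fgf3 differed by -0.67, -0.42 and -0.52 (adjusted p = 0.291, 0.311 and 0.331). Fgf18, named after its values were seen, shared the pattern of Fgf8 with r 0.98, at -1.90, -0.31 and -3.14 in Otx2 cKO and -1.36, -1.73, -1.64 and -1.06 in Control arrays.

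All 5 FGF receptor genes were tested and 0 passed, against the same 0.21% of all genes, which also stands beside the counts for the 2 lists that follow. Fgfr3 had the smallest p, at 2.05, 1.58 and 2.16 in Otx2 cKO and 1.66, 1.64, 1.52 and 1.5 in Control arrays (difference 0.35 ± 0.15, limma adjusted p = 0.451), and its r with Fgf8 was -0.68. Of 21 genes of the cascade between receptor and ERK, 20 were tested and 0 passed. Of the 18 with a value on every array 1, Shc1 (named after its values were seen), followed Fgf8, a share near the 5.39% of all genes. Of 12 further feedback genes 11 were tested and 0 passed. Lrig1, a membrane protein that restrains receptor tyrosine kinases, came closest. It was 2.49, 2.72 and 2.60 in Otx2 cKO and 1.83, 1.86, 1.96 and 2.01 in Control arrays, a difference of 0.69 ± 0.09 with no overlap (adjusted p = 0.0557), and its r with Fgf8 was 0.08.

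Among 10 immediate early genes that ERK is known to induce, 9 were tested and 0 passed between the groups, against 0.21% of all genes. Of these 9, Egr2, Fos and Junb had a positive r with Fgf8 at an exact permutation p of at most 0.05 (r 0.82, 0.82 and 0.80), 3 of 9 against 5.39% of all genes, and the median r of the 9 was 0.73, against 0.09 for all genes. With Fgf17 only Fos did so, 1 of 9 against 3.91%, and the median r was 0.62, against 0.06. Fos was -5.61, -4.75 and -6.03 in Otx2 cKO and -5.37, -6.00, -5.33 and -5.55 in Control arrays, highest and lowest in the same arrays as Fgf8.

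The genes whose values were most like the mean of the 8 centred response genes, outside the members, were Gjd3 (a connexin), Tpst2 (a tyrosylprotein sulfotransferase), Hsd11b2 (a glucocorticoid-inactivating enzyme), Shc3 (a neuronal adaptor) and Slc14a1 (a urea transporter). Their r over the 7 arrays was 0.989, 0.978, 0.973, 0.972 and 0.972, the highest of 12665 genes. By the same measure Fgf17 stood at rank 219 (r 0.84) and Fgf8 at rank 384 (r 0.81). Gjd3 was -6.03, -3.40 and -6.99 in Otx2 cKO arrays and -7.45, -6.18, -6.40 and -6.27 in Control arrays. Slc14a1 was -2.35, -1.36 and -2.93 in Otx2 cKO and -2.79, -2.66, -2.88 and -2.67 in Control arrays, again highest in Otx2 cKO replicate 2.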

How the data were processed

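Cy3-labelled amplified RNA of 7 embryos was hybridised to 1-colour Agilent 4x44K arrays, per the labels' protocols. The deposited intensity of each spot was background-subtracted by Agilent Feature Extraction 10.7.3.1, per the file headers; the submitters' processing notes name 10.5. The authors' deposited log2 table, an alternative here, follows the unsubtracted median signal (rank correlation at least 0.99996) with column medians of 7.62, 7.62 and 7.64 in Otx2 cKO and 7.61, 7.63, 7.61 and 7.62 in Control. Its columns share a maximum of 18.8, how it was made is not given in the sources used, and its order shows no centring or turned sign.

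Control and outlier spots (1.24% to 2.51%) were left out. Signals were scaled to the 75th percentile of the array, floored at a log2 of -7.45 and averaged per probe. Probes were named by accession through RefSeq (GRCm38.p6, used for names and promoters): 24844 had 1 symbol, 0 had several and 16330 had none. The brightest probe stood for a gene, if well above background on at least 3 of 7 arrays. Of 13541 such genes 13341 had enough unflagged values. limma 3.58.1 (R 4.3.3) was fitted with group as its only term, with Benjamini-Hochberg adjustment and a threshold of 0.05. Correlations used two-sided exact permutation tests, which are only approximate where a list mean was regressed out. Both procedures were tried on simulated data with stronger effects than the members showed and with independent noise, so this does not tell their power here.

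Members, lists and tests were chosen with earlier results of these data known. Named are all members with every probe, Fgf8, Fgf17 and Otx2, and the 5 genes most like the members' mean. Up to 4 genes per list with the smallest limma p could be named, and only some of them are. The lists of rostrocaudal transcription factors and of septum and midline genes are not described. Other genes, among them Egr2, Fos and Junb, were chosen after their values were seen. Alternatives were other backgrounds, scalings, filters, probe summaries, slide, litter and replicate blocks, and leaving out arrays. normexp used the median signal, since the mean signal column was not used here. Same-numbered arrays did not deviate together (r 0.11, -0.53 and 0.03), so replicate numbers were not treated as pairs.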

Additional observations from a re-analysis of the deposited data

Results flagged for a closer look

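In the 4 Control arrays, 49 genes and list means given here were checked for 1 array far from the rest by Dixon's ratio, which chance exceeds in about 1 of 20 groups, and 3 exceeded it. The mesenchyme and pericyte list mean was -1.83 in Control replicate 2, against 0.68 to 1.06 in the other Control arrays. Fgf13 was 2.05 in Control replicate 1, against 1.68 to 1.71. Shc3 was -3.73 in Control replicate 1, against -3.56 to -3.55.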

How the results depend on the processing

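The count of response genes and of their probes past the limma threshold was 0 under each alternative run, and so was the count that followed Fgf8 or Fgf17 after adjustment. The median log2 difference of the response genes ran between 0.03 and 0.68 over 26 alternatives, and between 0.04 and 0.68 leaving out 1 array at a time. The genes called over the whole array were 28 in the fit reported, 46 with normexp background, 43 in the authors' deposited table, 50 with an intensity trend, 38 with array weights, 20 with median centring, 15 with no filter on dim probes, 16 with slide as a block and 24 and 17 with Fgf8 and Fgf17 as covariates. They were 0 with the replicate block, litter as a block, or within a slide or litter, and 0 without Otx2 cKO replicate 3 or Control replicate 2, 3 or 4, and 3 and 11 without Otx2 cKO replicate 2 or Control replicate 1. With the replicate block the Otx2 difference was 1.56 (adjusted p = 0.326) and no response gene passed. The Otx2 difference ran between 1.27 and 1.61 over 26 alternatives, 14 of which ended its call.

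Small differences changed sign. Etv1 was 0.01 within slide 2. Spred1 was -0.03 with quantile normalization, -0.04 with median centring, -0.01 in the authors' deposited table and -0.02 with litter as a block and within litter 2. Fgf8 was 0.10 with normexp and 0.18 with the replicate block. Fgf17 was -0.15 with litter as a block and within litter 2 and -0.42 with array weights. Leaving out 1 array gave -0.07 to 0.02 for Etv1, -0.06 to 0.76 for Il17rd, -0.20 to 0.10 for Spred2, -1.22 to 0.91 for Fgf8 and -0.84 to 1.48 for Fgf17.

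Of the correlations, those of Etv1, Spred1 and Spred2 changed sign most often. For Etv1, r with Fgf8 was -0.02 with median centring, -0.15 with outlier spots kept and -0.73 without the 2 farthest arrays; with Fgf17 it was -0.14, -0.17 and -0.67 under the same settings. For Spred1, r with Fgf8 was -0.22 with quantile normalization, -0.07 with median centring, -0.11 in the authors' deposited table, -0.09 with outlier spots kept and -0.10 without the 2 farthest arrays; with Fgf17 it was -0.13, -0.04 and -0.07 under the first 3. For Spred2, r with Fgf8 was -0.03 with the mesenchyme list and -0.31 with the endothelial list regressed out. With Fgf17 it was -0.18 and -0.44 under those settings, -0.15 with quantile normalization, -0.04 with median centring, -0.14 in the authors' deposited table and -0.37 without the 2 farthest arrays. Spry2 and Etv5 were at -0.02 and -0.06 with Fgf8 without the 2 farthest arrays. Leaving out 1 array gave, with Fgf8, -0.17 to 0.52 for Etv1, -0.05 to 0.32 for Spred1 and -0.03 to 0.41 for Spred2, and with Fgf17, -0.19 to 0.42 for Etv1 and -0.30 to 0.40 for Spred2. The causes were not tested. Fgf8 and Fgf17 have 1 named probe each, so a second probe of a ligand gave no value. Dim probes (Fgf17, Spry4, Egr2) are limited by background.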
